A study of Mus musculus with 8 samples.

Results

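The dystrophin glycoprotein complex was followed through 8 of its genes, Dmd, Utrn, Dag1, Sgca, Sgcb, Sgcd, Sgce and Dtna, which were taken by gene symbol from a table of raw counts holding 26667 genes in all. The counts came from hind limb undifferentiated pleomorphic sarcomas (UPS) of mice, 4 in each group. KP mice carried Trp53 fl/fl, which Cre deletes, and a further allele that depends on Cre, and KPH2 mice carried these alleles together with Epas1 fl/fl, so that the gene of HIF-2α is deleted as well. Per the study's methods the mice were male and female, 8 weeks old or more and of mixed 129/C57BL/6 background, and each tumour was raised by injecting Cre adenovirus into the muscle of the right hind limb and taken at 7 weeks or at the maximal permitted size. RNA came from fixed tumours, which can hold host cells such as skeletal muscle, and which cells had recombined was not measured here. The question put to the data was whether the complex differs between KPH2 and KP tumours, and whether the genes listed here as muscle-restricted (Dmd, Sgca, Sgcd and Dtna) behave otherwise than those listed as broadly expressed (Utrn, Dag1, Sgcb and Sgce). KPH2 1, which the authors left out of their analysis as a technical outlier, is shown apart, and the groups compared are KP 5 to KP 8 and KPH2 2 to KPH2 4 unless all 8 tumours are named.

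The complex ties the actin cytoskeleton of a cell to the basement membrane around it. Dystrophin binds actin inside the cell and dystroglycan at the membrane, and the sugar chains on dystroglycan bind laminins outside. The sarcoglycans form a subcomplex in the membrane that stabilizes this link, and dystrobrevin joins it to syntrophins and signalling proteins. In striated muscle the complex protects the fibre membrane during contraction, and loss of dystrophin or of a sarcoglycan causes muscular dystrophy. Utrophin and ε-sarcoglycan are relatives of dystrophin and α-sarcoglycan that are made in many tissues.

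The start regions of 3 muscle genes of the complex are given here because the RNA level of Sgcd took another course across the tumours than those of Dmd and Sgca. Each runs from 250 bases before to 50 bases after a transcription start in RefSeq (GRCm38.p6), and capitals mark matches, on either strand, to an E box (CANNTG), a hypoxia response element core (ACGTG or GCGTG), a MEF2 site or a CArG box. The Dmd region (chrX:82948620-82948919, plus strand) lies at the start used in muscle, the Sgca region (chr11:94976278-94976577, minus strand) at the 5′ end of the gene, and the Sgcd region (chr11:47379276-47379575, minus strand) at a start inside the longest annotated extent of that gene.
Dmd: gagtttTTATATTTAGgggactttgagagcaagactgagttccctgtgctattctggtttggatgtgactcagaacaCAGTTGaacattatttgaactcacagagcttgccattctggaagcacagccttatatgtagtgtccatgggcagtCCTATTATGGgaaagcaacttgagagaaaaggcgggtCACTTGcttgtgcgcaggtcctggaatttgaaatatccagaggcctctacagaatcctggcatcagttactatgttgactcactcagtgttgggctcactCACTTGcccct
Sgca: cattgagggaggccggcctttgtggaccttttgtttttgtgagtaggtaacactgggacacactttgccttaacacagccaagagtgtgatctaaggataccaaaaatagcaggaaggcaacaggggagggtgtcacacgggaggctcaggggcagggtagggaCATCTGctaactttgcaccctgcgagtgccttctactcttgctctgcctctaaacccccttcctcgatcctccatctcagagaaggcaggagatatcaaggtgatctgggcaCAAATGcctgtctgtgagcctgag
Sgcd: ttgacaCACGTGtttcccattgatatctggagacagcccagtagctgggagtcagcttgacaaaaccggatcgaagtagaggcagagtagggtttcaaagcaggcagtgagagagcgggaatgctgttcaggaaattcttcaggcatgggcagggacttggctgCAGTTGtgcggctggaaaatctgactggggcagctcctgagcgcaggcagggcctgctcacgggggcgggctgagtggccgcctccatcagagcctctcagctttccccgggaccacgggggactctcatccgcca
The Dmd region held 3 E boxes, 1 MEF2 site and 1 CArG box, the Sgca region 2 E boxes, and the Sgcd region 2 E boxes. The first of the 2 E boxes in the Sgcd region, CACGTG, begins 244 bases before the start, and the hypoxia response element core is found in it on both strands. The Dmd and Sgca regions shown did not hold that core, but it was present in a second Dmd start region and in those of Utrn, Dag1 and Sgcb, so that 5 of the 6 members with start regions had it. Among 32817 regions of this length an E box was found in 72.3%, the hypoxia response element core in 43.8%, a MEF2 site in 3.19% and a CArG box in 1.63%, so that only the latter 2 motifs are uncommon. A match of letters does not show that a factor binds there. RefSeq start regions were at hand for 6 of the 8 members.

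Epas1, the gene deleted in KPH2 tumours, was counted at 59.2 to 86.9 CPM (counts scaled to a common library size after TMM normalization) in the 4 KP tumours, at 37.7 to 53.4 CPM in KPH2 2 to KPH2 4, and at 32.6 CPM in KPH2 1. All 4 KPH2 tumours were below every KP tumour, as for 4.39% of all genes tested over 8 tumours. The fitted difference over 7 tumours was -0.81 ± 0.19 on the log2 scale (SE, adjusted p = 0.074 in edgeR and 0.012 in DESeq2). Over all 8 tumours it was -0.91 ± 0.19 (SE, adjusted p = 0.12 in edgeR and 0.0058 in DESeq2). Total counts ran from 6463221 to 13155510 per tumour. Mesenchymal genes that mark such tumours, Vim and Col1a1 among them, were abundant in every section, and the 7 listed summed to between 17234 and 42316 CPM. Mature skeletal muscle genes also differed between the sections. The 24 listed markers, Ckm, Acta1 and Ttn among them, summed to 1841 to 3362 CPM in KP tumours, 4311 to 19391 CPM in KPH2 2 to KPH2 4 and 1512 CPM in KPH2 1, and all 24 were higher in the fit over 7 tumours, although 2 passed the adjusted p. The 8 markers of regenerating or embryonic muscle, such as Myog and Myh3, summed to 42.3 to 168 CPM in KP tumours, 286 to 1083 CPM in KPH2 2 to KPH2 4 and 33.6 CPM in KPH2 1, and all 7 of those tested were higher, with 1 call. In bulk sections, fewer cells of a type and less RNA per cell cannot be told apart.

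Of the 8 members, Dtna rose and Sgcd fell in KPH2 tumours, and 6 did not pass the test. Both genes that passed came from the members listed as muscle-restricted, and they went in opposite directions. That listing rests on background knowledge, and Sgcd was higher in KP tumours, where the summed muscle markers were lower. Dtna was about 3 times as abundant in KPH2 2 to KPH2 4 as in KP tumours (ratio of means 2.96), while Sgcd was at 0.158 of its KP level. Sgca and Dmd were high in KPH2 2 and KPH2 3 but not in KPH2 4. Utrn differed by less than the spread between tumours. Among all 14867 genes tested, 1.24% were called higher and 0.72% lower in KPH2 at an adjusted p under 0.05, against 1 member each way.

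**Figure D1:**
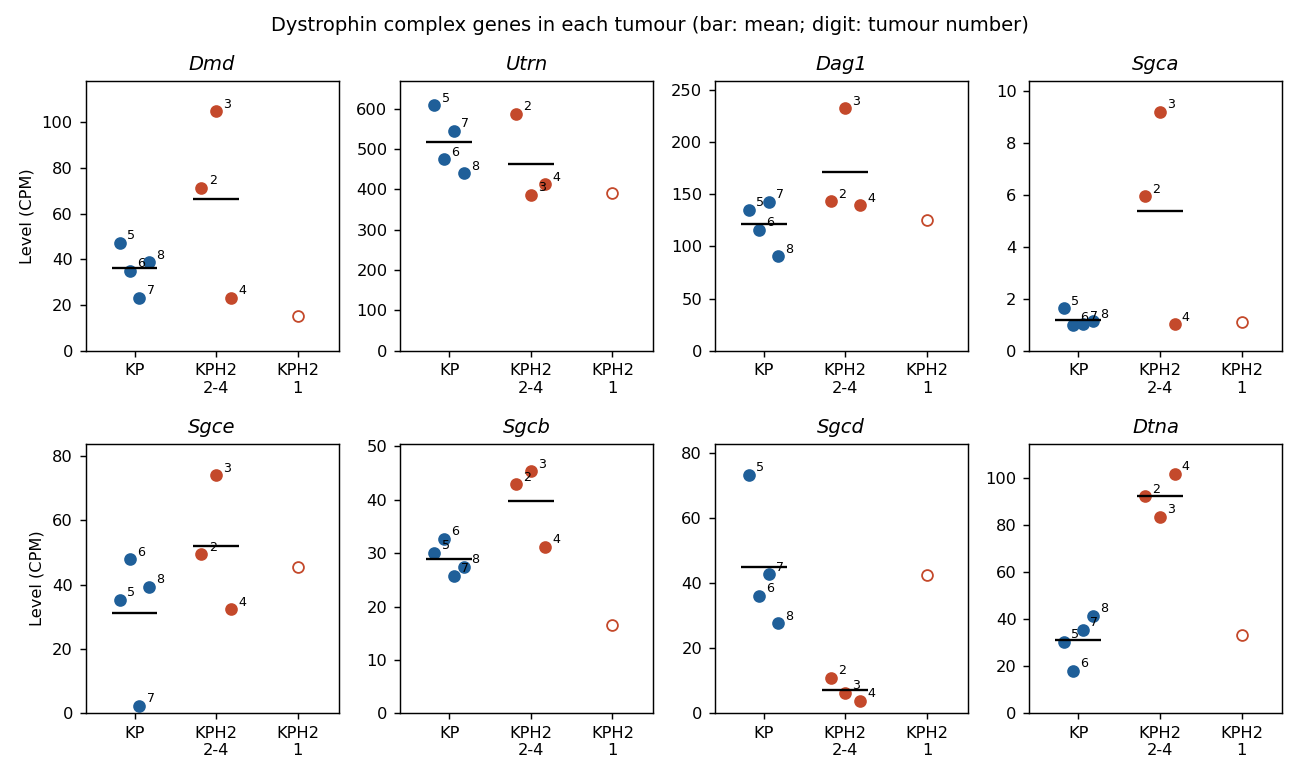
Level of each of the 8 members in every tumour, in CPM on linear axes from 0, for KP 5 to KP 8 (blue), KPH2 2 to KPH2 4 (red) and KPH2 1 (open). Horizontal bars are means of 4 and 3 tumours. The KP and KPH2 2 to KPH2 4 points are separate for Sgcd and Dtna only, and KPH2 1 lies among the KP points in both.

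Dmd (chromosome X, 82814664 to 85205050, GRCm38) encodes dystrophin, the actin-binding anchor of the complex. The KP tumours 5 to 8 had 47.1, 35.1, 23.1 and 38.6 CPM of it, the KPH2 tumours 2 to 4 had 71.2, 105 and 23.2 CPM, and KPH2 1 had 15.3 CPM. KPH2 2 and KPH2 3 were above every KP tumour, KPH2 4 was level with the lowest KP tumour and KPH2 1 was below all of them. The log2 difference was 0.88 ± 0.45 (SE, adjusted p = 0.36), and an exact two-sided permutation test that ran through the 35 ways to split 7 tumours gave p = 0.286. It was 0.39 without KPH2 3 and 1.29 without KPH2 4, so this log2 difference leans on single tumours. The count covers the whole gene, so the full-length muscle protein and the short dystrophins that start inside the gene and occur outside muscle are summed in it.

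Utrn (chromosome 10, 12382187 to 12869888) encodes utrophin, which takes the place of dystrophin in many non-muscle cells and in immature muscle. Its level was 608, 474, 545 and 440 CPM in the KP tumours 5 to 8, 588, 386 and 412 CPM in the KPH2 tumours 2 to 4, and 390 CPM in KPH2 1. The groups overlapped, and KPH2 2 stood above the other KPH2 tumours. The difference was -0.16 ± 0.20 on the log2 scale (SE, adjusted p = 0.72, exact permutation p = 0.4). The genes have exons of similar total length, and counts of Utrn were 11.4 to 23.6 times those of Dmd in KP tumours, 8.25, 3.69 and 17.8 times in KPH2 2, 3 and 4, and 25.6 times in KPH2 1. Utrophin reads thus outnumbered dystrophin reads everywhere, by the least in KPH2 3. The log2 ratio of Utrn to Dmd differed between the groups by -0.85 (KPH2 minus KP, exact permutation p = 0.229), which was not larger than the spread between tumours. It was -0.28 without KPH2 3, -1.41 without KPH2 4 and -0.44 over all 8 tumours.

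Dag1 (chromosome 9, 108204861 to 108263977) encodes both subunits of dystroglycan, the laminin receptor at the centre of the complex. The KP tumours 5 to 8 gave 135, 116, 143 and 90.4 CPM, the KPH2 tumours 2 to 4 gave 143, 232 and 139 CPM, and KPH2 1 gave 125 CPM. KPH2 3 stood apart, and the other KPH2 tumours lay within or at the edge of the KP range. The difference of 0.50 ± 0.23 on the log2 scale (SE) did not pass the test (adjusted p = 0.31, exact permutation p = 0.114). It was 0.22 without KPH2 3 and 0.63 without KPH2 4.

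The sarcoglycans took different courses. Sgca (chromosome 11, 94962777 to 94976327), for the α-sarcoglycan of striated muscle, was nearly absent from KP tumours at 1.63, 0.99, 1.04 and 1.13 CPM in tumours 5 to 8. It reached 5.94 and 9.21 CPM in KPH2 2 and KPH2 3, whereas KPH2 4 and KPH2 1 stayed at KP levels, with 1.01 and 1.12 CPM. These values rest on few reads, 7 to 22 counts in each KP tumour, 66 and 92 counts in KPH2 2 and KPH2 3 and 9 counts in KPH2 4. The mean was 1.20 ± 0.30 CPM in KP (SD, n = 4) and 5.39 ± 4.12 CPM in KPH2 2 to KPH2 4 (SD, n = 3). The log2 difference of 2.14 ± 0.63 (SE) missed the threshold in edgeR (adjusted p = 0.13, exact permutation p = 0.114), and DESeq2 gave an adjusted p of 0.023. It was 1.52 without KPH2 3 and 2.63 without KPH2 4, the latter with a call.

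Sgcb (chromosome 5, 73632749 to 73647737), encodes the β-sarcoglycan shared by striated and smooth muscle and other tissues. Its level was 25.8 to 32.7 CPM in KP tumours, 42.9, 45.3 and 31.2 CPM in KPH2 2, 3 and 4, and 16.5 CPM in KPH2 1. KPH2 2 and KPH2 3 were again above the KP range and KPH2 4 was inside it. The difference was 0.46 ± 0.18 on the log2 scale (SE, adjusted p = 0.23, exact permutation p = 0.0571).

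Sgcd (chromosome 11, 46971077 to 47989451), for the δ-sarcoglycan of striated and smooth muscle, took the opposite course. The KP tumours 5 to 8 held 73.2, 36.1, 42.7 and 27.6 CPM of its RNA, against 10.98, 6.30 and 3.94 CPM in the KPH2 tumours 2 to 4. Every one of these KPH2 tumours was below every KP tumour, and the lowest was KPH2 4, although that tumour had the least skeletal muscle RNA of the 3. KPH2 1, at 42.4 CPM, lay inside the KP range. The mean fell from 44.9 ± 19.9 CPM (SD, n = 4) to 7.08 ± 3.58 CPM (SD, n = 3), a log2 difference of -2.66 ± 0.45 (SE, adjusted p = 0.034). The exact permutation p was 0.0286, the smallest that 7 tumours allow. Leaving out 1 tumour at a time gave differences of -3.13 to -2.30 and adjusted p-values of 0.035 to 0.098, and the call was lost without KP 6, KP 7 or any one of the 3 KPH2 tumours. With KPH2 1 included the difference was -1.49 ± 0.69 (SE, adjusted p = 0.36, exact permutation p = 0.0857). Among all genes tested, 8.15% had every one of KPH2 2 to KPH2 4 below every KP tumour. Smooth muscle and pericyte markers, which include cells known to make δ-sarcoglycan, had differences below 0 in 7 of 9 tested genes (median -0.24), beside 52% of all genes, and 1 of them, Cnn1, was called lower. Their 10 listed genes summed to 329 to 978 CPM in KP tumours, 257 to 863 CPM in KPH2 2 to KPH2 4 and 164 CPM in KPH2 1. Their part in the fall of Sgcd was not tested.

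The balance of α- to δ-sarcoglycan reads therefore differed widely between tumours, a pair singled out after the values were seen. Sgca had 0.0223 to 0.0410 counts for each Sgcd count in KP tumours and 0.0264 in KPH2 1. It had 0.541, 1.46 and 0.257 in KPH2 2, 3 and 4. The pair was set side by side for this difference, so no test was made of it.

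Sgce (chromosome 6, 4674350 to 4747204) encodes ε-sarcoglycan, the widely made relative of α-sarcoglycan, and is expressed from the paternal allele only in most tissues. KP 5, 6 and 8 had 35.4, 47.8 and 39.3 CPM of it, but KP 7 had 2.37 CPM, from 16 counts. The KPH2 tumours 2 to 4 lay at 49.4, 74.0 and 32.3 CPM, and KPH2 1 at 45.4 CPM. The groups overlapped with or without KP 7, since KPH2 4 was below KP 5, 6 and 8. The difference was 0.73 ± 0.73 on the log2 scale (SE, adjusted p = 0.66, exact permutation p = 0.429). Without KP 7 it was 0.35. The log2 ratio of Sgce to Sgca differed by -0.31 (KPH2 minus KP, exact permutation p = 0.886), and by -1.26 without KP 7.

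Peg10, an imprinted gene derived from a retrotransposon, starts 99 bases from Sgce on the opposite strand by the gene starts of GENCODE vM21, which differ slightly from the coordinates given for Sgce here, and both are transcribed outward from the shared start region. Its level was 3.11 CPM in KP 7 against 116, 125 and 112 CPM in the other KP tumours. The KPH2 tumours 1 to 4 had 276, 429, 287 and 183 CPM. Both genes were therefore low in the same KP tumour, and Peg10 was higher in each of the 4 KPH2 tumours than in any KP tumour, as were 3.76% of all genes tested over 8 tumours. The log2 difference of Peg10 was 1.75 ± 0.86 (SE, adjusted p = 0.34, exact permutation p = 0.114). Over all 8 tumours it was 1.72 ± 0.79 (SE, adjusted p = 0.36), and the exact permutation p was 0.0286, the smallest they allow. Casd1, the gene on the other side of Sgce, was named after its values were seen and was at 57.2 CPM in KP 7 against 46.4 to 60.1 CPM in the other KP tumours.

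**Figure D2:**
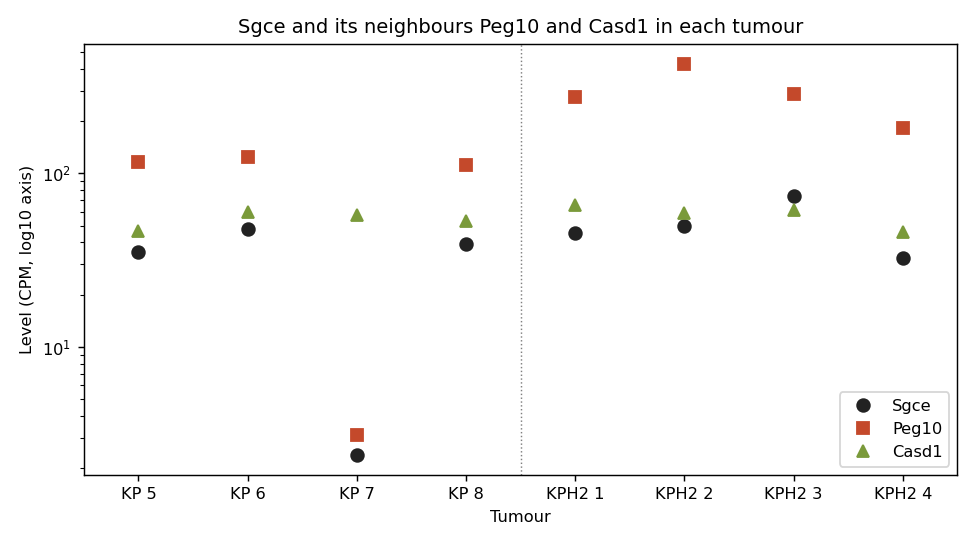
Level of Sgce (circles), Peg10 (squares) and Casd1 (triangles) in each tumour, in CPM on a log10 axis, with KP tumours left and KPH2 tumours right of the dotted line. Sgce and Peg10 drop together in KP 7, to 2.37 and 3.11 CPM, and Casd1 does not.

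Dtna (chromosome 18, 23310006 to 23659719) encodes α-dystrobrevin, which binds dystrophin and the syntrophins and is prominent in muscle and at its synapses with nerve. The KP tumours 5 to 8 had 30.3, 18.1, 35.4 and 41.4 CPM of it, and the KPH2 tumours 2 to 4 had 92.2, 83.6 and 102 CPM. All 3 KPH2 tumours were above every KP tumour and close to one another, and KPH2 4 was the highest. KPH2 1, at 33.5 CPM, lay among the KP tumours. The mean rose from 31.3 ± 9.89 CPM (SD, n = 4) to 92.5 ± 9.17 CPM (SD, n = 3), a log2 difference of 1.56 ± 0.26 (SE, adjusted p = 0.029, exact permutation p = 0.0286). Leaving out 1 tumour at a time gave differences of 1.37 to 1.72 and adjusted p-values of 0.033 to 0.091, and the call was lost without KP 7 or any one of the 3 KPH2 tumours. Over all 8 tumours the difference was 1.31 ± 0.36 (SE), with an adjusted p of 0.18 in edgeR and 0.0225 in DESeq2 and an exact permutation p of 0.0857. Among all genes tested, 8.73% had all of KPH2 2 to KPH2 4 above every KP tumour. All 24 skeletal muscle markers had positive differences, with 2 called over 7 tumours and 0 over 8. Their part in the rise of Dtna was not tested, and the covariate fit over 7 tumours given further on cannot tell it from the group difference. An annotated antisense gene, Gm47898, overlaps exons of Dtna, and the strand setting of the counting is not given in the sources used here.

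Over all 8 tumours edgeR called 0 of the 8 members, with 2 at an unadjusted p under 0.05 (Sgca and Dtna) beside 14.7% of all genes, while DESeq2 called 1. Of all genes tested over 8 tumours, edgeR called 0.00675% and DESeq2 3.91%. Over 7 tumours DESeq2 called 3 members (Sgca and Dtna higher, Sgcd lower) where it called 6.97% of all genes. KPH2 1 lay inside the KP range for 5 members (Dag1, Sgca, Sgce, Sgcd and Dtna) and below it for 3 (Dmd, Utrn and Sgcb).

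**Figure D3:**
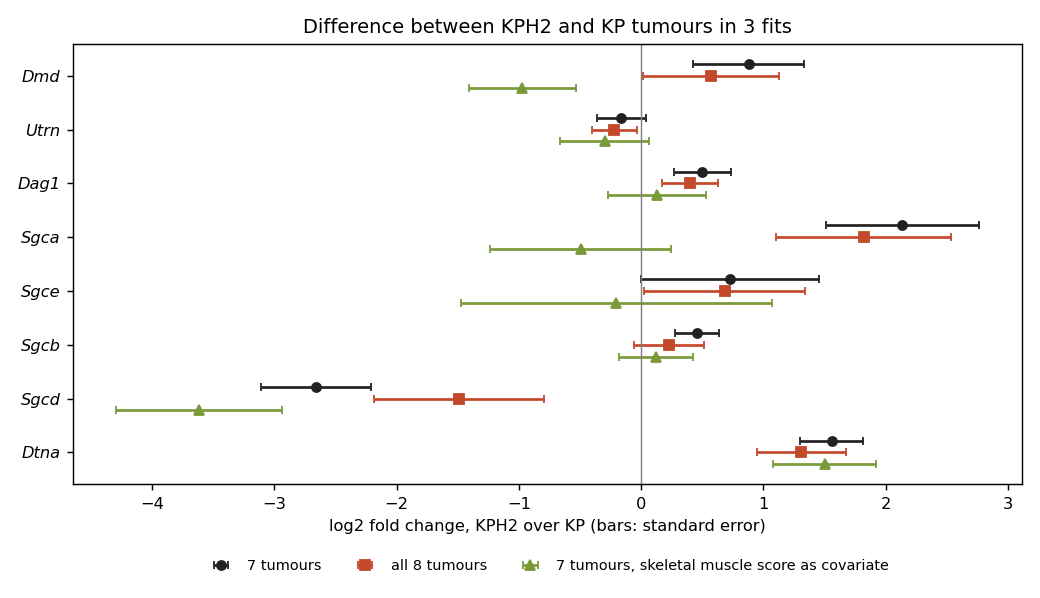
Fitted log2 difference of each member (KPH2 over KP) with its standard error, over 7 tumours (circles), all 8 tumours (squares) and 7 tumours with the skeletal muscle score as covariate (triangles). Sgcd lies below 0 and Dtna above 0 in all 3 fits, whereas Dmd, Sgca and Sgce change sign with the covariate.

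The 4 members listed as muscle-restricted did not move as a class. Their log2 differences spread from -2.66 (Sgcd) to 2.14 (Sgca), with a median of 1.22, while the 4 broadly expressed members spread from -0.16 (Utrn) to 0.73 (Sgce), with a median of 0.48. The median of all genes tested was -0.02. In each class 3 members had a positive and 1 a negative difference. The first class held 2 calls and the second held none.

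Set against the skeletal muscle score, the mean log2 CPM of the 24 markers, the members did not all take 1 course. The scores of KPH2 2 (6.94) and KPH2 3 (7.58) stood 1.61 or more above the next tumour, KPH2 4 (5.33), and the 6 other tumours lay between 3.88 and 5.33. Dmd, Sgca, Sgcb, Dag1 and Sgce were each highest in KPH2 3, next in KPH2 2 and at KP levels in KPH2 4, which is the order of the score among these KPH2 tumours. For Dag1 and Sgce, KPH2 2 was only just above the highest KP tumour. Dtna and Sgcd did not follow that order among these KPH2 tumours. KPH2 4 had a score next to that of KP 5 (5.30), but the highest Dtna and the lowest Sgcd of all tumours. By the mean log2 CPM of the 8 regenerating or embryonic muscle markers, however, KPH2 4 (3.78) was above every KP tumour (highest 3.37, in KP 6). Utrn did not follow the order either, with its highest value in KP 5 and its lowest in KPH2 3.

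As the tumours fell into 2 clusters of score, no correlation over all of them is given, and within the 6 lower tumours Pearson's r with the score ran from -0.41 for Sgcd to 0.66 for Dtna. The exact permutation p-values of these 2 were 0.515 and 0.119 (0.96 and 0.92 adjusted over 14805 genes), and Spearman's rho was -0.26 (p = 0.658) and 0.60 (p = 0.242). None of the 8 relations over these 6 tumours had a Pearson permutation p below 0.119. Over 7 tumours every KPH2 score was above every KP score, the closest being KPH2 4 (5.33) and KP 5 (5.30). A fit with the score as covariate over these tumours therefore cannot tell muscle content from group. With the score as a covariate over 7 tumours, the log2 difference was -3.62 ± 0.68 for Sgcd (SE, adjusted p = 0.20) and 1.5 ± 0.42 for Dtna (SE, adjusted p = 0.36). That of Sgca turned to -0.49 ± 0.74 (SE, adjusted p = 0.94), though not over 8 tumours (0.093), and that of Dmd to -0.97 ± 0.44 (SE, adjusted p = 0.62). This fit called 0 members and 0.0202% of all genes, with 2 members (Sgcd and Dtna) and 8.34% of all genes at an unadjusted p under 0.05, and DESeq2 was not run with the covariate.

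**Figure D4:**
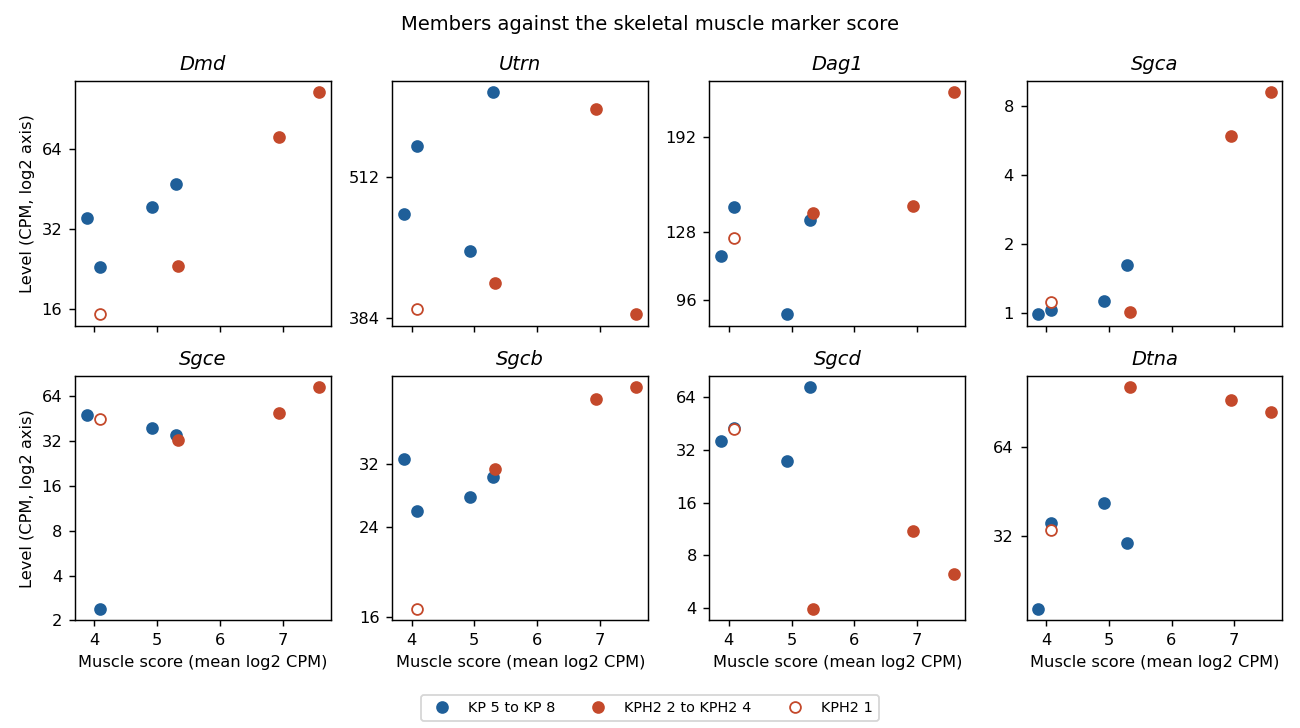
Level of each member (CPM, log2 axis, each panel with its own range) against the skeletal muscle score (mean log2 CPM of 24 markers) in the 8 tumours, with KP in blue, KPH2 2 to KPH2 4 in red and KPH2 1 open. KPH2 2 and KPH2 3 lie at the right with scores of 6.94 and 7.58, and in the Sgcd and Dtna panels KPH2 4, at 5.33, sits with them and not with the KP tumours.

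Levels can be compared between genes only per length, and CPM was divided by the exon length of each gene in kilobases (GENCODE vM21) for this purpose. In KP tumours the order was Utrn at 36.2 ± 5.25 CPM per kb (SD, n = 4), Dag1 at 20.3 ± 3.92, Sgce at 16.6 ± 10.6, Sgcd at 12.8 ± 5.68, Sgcb at 7.66 ± 0.80, Dtna at 3.29 ± 1.04, Dmd at 2.41 ± 0.66 and Sgca at 0.70 ± 0.17. The neighbours Dag1 and Sgce, Sgce and Sgcd, Sgcd and Sgcb, and Dtna and Dmd lay within each other's spread. In KPH2 2 to KPH2 4 Utrn (32.4 ± 7.67 CPM per kb, SD, n = 3), Dag1 (28.8 ± 8.82) and Sgce (27.6 ± 11.1) still led and overlapped, and Sgcb (10.5 ± 1.99) and Dtna (9.73 ± 0.96) followed. Dmd (4.44 ± 2.74), Sgca (3.12 ± 2.39) and Sgcd (2.02 ± 1.02) came last and overlapped. Sgcd, labelled a muscle gene, was thus among the more abundant sarcoglycans where skeletal muscle RNA was low, at 18.5 times the KP level of Sgca per length. Exon length is that of all annotated isoforms together, so genes with many short isoforms, such as Dmd, are understated.

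The genes listed around the 8 members differed in how many were called. Of 8 other proteins of the complex, 5 were tested and edgeR called none, with 0 at an unadjusted p under 0.05 and 0 called by DESeq2. Sspn, for the membrane protein sarcospan, had a difference of 0.60 ± 0.37 (SE), and the syntrophin genes Sntb1 and Sntb2 had 0.21 ± 0.45 and -0.14 ± 0.27 (SE). Dtnb, for the β-dystrobrevin of non-muscle tissues, had 0.07 ± 0.21 (SE). The median over the 5 was 0.07.

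The 17 genes of dystroglycan glycosylation, which build the laminin-binding sugar chain, lay close to 0, with a median log2 difference of -0.02 and a range from -0.65 to 0.90. None was called by edgeR or DESeq2, and 2 had an unadjusted p under 0.05 in edgeR, as did 17.8% of all genes tested over 7 tumours. These were Ispd, whose product makes the ribitol donor for the chain (0.90 ± 0.30, SE; adjusted p = 0.16), and Gmppb, whose product makes the mannose donor (-0.65 ± 0.28, SE; adjusted p = 0.28). The genes of the mannose kinase Pomk (in the files 4930444A02Rik) and of the glycosyltransferase Pomgnt2 (C85492) had differences of -0.33 ± 0.18 and 0.32 ± 0.26 (SE).

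Of 11 genes for ligands of dystroglycan, 9 were tested and edgeR called 1 over 7 tumours, Lama5, for the laminin α5 chain of basement membranes. It was at 34.9 to 47.7 CPM in KP tumours, at 440, 360 and 527 CPM in KPH2 2, 3 and 4 and at 25.6 CPM in KPH2 1, a log2 difference of 3.46 ± 0.19 (SE, adjusted p = 0.00072). The call held in all 7 fits that left out 1 tumour and with the muscle covariate. With KPH2 1 included the difference was 3.07 ± 0.72 (SE) and was no longer called by edgeR (adjusted p = 0.15), while DESeq2 still called it (adjusted p = 0.00018). Like Dtna, it was highest in KPH2 4 and at or below KP levels in KPH2 1. Epithelial markers ran in the same order across the KPH2 tumours, highest in KPH2 4, then KPH2 2, KPH2 3 and KPH2 1 by their mean log2 CPM. The 5 listed summed to 1.84 to 3.86 CPM in KP tumours, 9.31 to 295 CPM in KPH2 2 to KPH2 4 and 2.16 CPM in KPH2 1, with Krt5 and Krt14 at 0 in every tumour. Both of the 2 that could be tested were higher, with 1 call, and their part in the rise of Lama5 or Dtna was not tested. Lama4, for a laminin chain of vessel and muscle basement membranes, had a difference of -0.78 ± 0.20 (SE, adjusted p = 0.086 in edgeR and 0.012 in DESeq2), with all 4 KPH2 tumours below every KP tumour, as for 4.39% of all genes tested over 8 tumours. Egflam, for the dystroglycan ligand pikachurin, had -1.84 ± 0.46 (SE, adjusted p = 0.082 in edgeR and 0.0016 in DESeq2) and was likewise lower in all 4 KPH2 tumours. Over all 8 tumours DESeq2 called both lower (adjusted p = 0.0049 and 0.00075) and edgeR called neither (0.13 and 0.12). Of 6 endothelial markers 5 had values below 0, with a median of -0.58, 0 called by edgeR and 3 at an unadjusted p under 0.05, where 52% of all genes were below 0 and 17.8% were at such a p. They summed to 249 to 463 CPM in KP tumours, 225 to 246 CPM in KPH2 2 to KPH2 4 and 183 CPM in KPH2 1, and their part in the values of Lama4 was not tested. Slit2, for a guidance protein that binds dystroglycan, had -1.33 ± 0.50 (SE, adjusted p = 0.22). The list's median was -0.53.

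Of 12 cytoskeletal and membrane partners edgeR called 3 higher and 0 lower over 7 tumours, where 1.24% of all genes were called higher. DESeq2, which called 6.97% of all genes in either direction, called 7 higher and 1 lower, the latter being Ank2, for another ankyrin that binds dystrophin, at -0.99 on the log2 scale (adjusted p = 0.037). edgeR called 0 of the partners over all 8 tumours, with 6 at an unadjusted p under 0.05 and 1 called by DESeq2 (Ank3), and 0 with the muscle covariate, with 3 at an unadjusted p under 0.05. Itga7, for the α7 integrin that is the other laminin receptor of muscle, was at 17.7 to 44.8 CPM in KP tumours, 156, 122 and 139 CPM in KPH2 2, 3 and 4 and 6.47 CPM in KPH2 1. Its log2 difference was 2.10 ± 0.29 (SE, adjusted p = 0.019). Sync, for the intermediate filament protein syncoilin that binds dystrobrevin, had a difference of 1.55 ± 0.28 (SE, adjusted p = 0.037). Ank3, for an ankyrin that holds dystrophin at the membrane, had 1.52 ± 0.29 (SE, adjusted p = 0.042) and was the only one of the 3 with all 4 KPH2 tumours above every KP tumour. When 1 tumour was left out at a time, Itga7 kept its call in 5 of 7 fits, Ank3 in 2 and Sync in 1. Over all 8 tumours the differences of Itga7, Ank3 and Sync were 1.71 ± 0.75, 1.35 ± 0.32 and 1.22 ± 0.49 (SE). With the muscle covariate they were 2.38 ± 0.50, 1.41 ± 0.50 and 0.91 ± 0.46 over 7 tumours (SE), and 0.63, 1.01 and 0.072 over 8. Cav3, for the caveolin of muscle, had a difference of 2.83 ± 0.62 (SE, adjusted p = 0.062). The median of the list was 1.10, and 11 of its 12 genes had a positive difference, beside 7143 of all 14867 genes tested. Over all 8 tumours the median was 0.50 among the 11 tested.

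**Figure D5:**
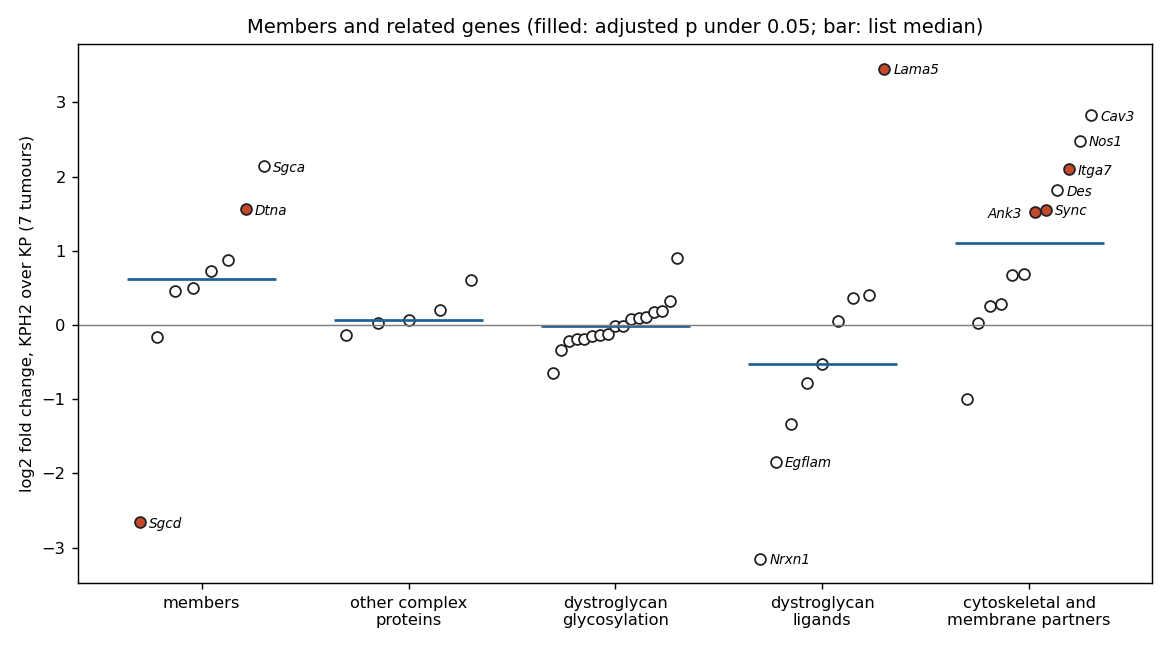
Log2 difference (KPH2 over KP, 7 tumours) of each tested gene among the members and the 4 lists of related genes. Filled points passed an adjusted p under 0.05 and bars are list medians. Sgcd is the lowest member at -2.66, and Lama5 is the highest gene at 3.46.

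Genes whose log2 levels ran most like each member over the 8 tumours were found among the genes tested, by Pearson's r. For Dtna these were Dmwd (r = 0.99), Sdhb (0.98) and Lrrfip1 (0.98). For Sgcd they were Crabp1 (0.98), Hgsnat (0.98) and Fam196a (0.97), of which Crabp1, a retinoic acid binding protein, fell by 2.43 on the log2 scale (adjusted p = 0.031). For Sgca they were Gm1614 (0.99), Trdn (0.97), for triadin of the muscle calcium release unit, and Mylpf (0.97), a fast muscle myosin light chain, and for Dmd they were Limch1 (0.99), Slc8a3 (0.96) and Usp13 (0.96). Those of Sgcb were Map4k1 (0.99) and Ablim3 (0.99), those of Dag1 were Tmem136 (0.98), Galnt5 (0.96) and Ccdc80 (0.96), and those of Utrn were Rai14 (0.97), Gtse1 (0.94) and Zfp740 (0.94). Sgce ran closest to Glod4 (0.98), Rsph9 (0.97) and Ndufs4 (0.96), and Peg10 was the fourth at 0.96, where the single low tumour KP 7 weighs heavily. These are the highest of 14797 values for each member over only 8 points, and they are given as a description.

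Among the members themselves, r over the same 8 tumours was highest between Dmd and Sgcb (0.89) and between Dmd and Sgca (0.87). It was lowest between Sgcd and Dtna (-0.88). These values share the tumours that carry the group difference, so they describe the same contrast again.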

How the data were processed

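RNA from fixed sections of 4 KP and 4 KPH2 tumours was sequenced from stranded, ribosomal RNA-depleted libraries, 1 per tumour. The authors aligned reads to GRCm38 with STAR 2.4, used HTSeq 0.6.1 to count uniquely aligned reads of each RefSeq gene and deposited raw counts, and also deposited log2 values from the regularized log transformation of DESeq2 over 7 tumours. A second such table over 8 tumours was not used here. All per-sample columns of the tables used were mapped to samples.

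Counts were tested with edgeR 4.0.16 in R 4.3.3 by its quasi-likelihood test, with TMM normalization, a filter on low counts (minimum count 10, minimum total count 15) and robust estimates. P-values were adjusted over all genes tested by the Benjamini-Hochberg method and called under 0.05. CPM used TMM library sizes over all 8 tumours, and log2 CPM used a prior count of 2. Exact permutation tests were two-sided over the 35 splits of 7 or the 70 splits of 8 tumours. DESeq2 1.42.0, limma 3.58.1 on the deposited log2 values, other scalings, no filter, each tumour left out and a skeletal muscle covariate were alternatives, and DESeq2 and the covariate over 8 tumours were added after seeing the data. The biological coefficient of variation was 0.313 over 7 tumours and 0.347 over 8, and any pair of libraries differed by more than sampling noise.

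Members, classes and lists were chosen with earlier results of these data known. Genes named from a list are those past the threshold and, up to 4 in all, those with the smallest p, besides Peg10 for the start region it shares with Sgce. The 3 genes most like each member are named by Pearson's r. Some items of the design and of these rules are not reported here. Older symbols were used where needed, such as Ispd. Counts cover whole genes and carry no isoform information. Protein sequences and start regions of Sgce and Dtna were not analysed here.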

Additional observations from a re-analysis of the deposited data

Results flagged for a closer look

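In groups of 4 tumours, a single tumour was taken to stand apart where its gap to the nearest of the others, on the log2 CPM scale, exceeded Dixon's critical value of 0.829 of the group's range. Of 50 gene and group combinations 7 did so, where chance flags about 1 in 20. Sgce at 2.37 CPM and Peg10 at 3.11 CPM stood apart in KP 7, with gaps of 0.90 and 0.97 of the range, and these neighbouring genes were low in the same tumour. Sync was the lowest in KP 5, at 3.79 CPM, but the 4 KP values span a narrow range, and the gene of Pomk was the highest in that tumour, at 47.3 CPM. Among the 4 KPH2 tumours, Lama5 at 25.6 CPM and Itga7 at 6.47 CPM stood apart in KPH2 1, the tumour the authors left out. Utrn stood apart in KPH2 2, at 588 CPM, which is inside the range of the KP tumours.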

How the results depend on the processing

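Dag1 and Utrn kept their direction and stayed short of the threshold under all 16 alternatives, and Sgcd and Dtna kept their direction in all of theirs. RLE and upper-quartile scaling, no filter on low counts and limma on the deposited log2 values changed no member's call. In edgeR no member was called over all 8 tumours (0 higher, 0 lower) or with the muscle score as covariate (0 and 0, over 7 or 8 tumours). DESeq2 called 2 members higher and 1 lower over 7 tumours, and 1 higher and 0 lower over 8. Leaving out each tumour gave 0 to 1 called higher and 0 to 1 called lower. Dtna lost its call without KP 7 or any one of KPH2 2, 3 and 4, and Sgcd without KP 6, KP 7 or any one of those KPH2 tumours, with adjusted p-values up to 0.091 and 0.098. Sgca was called without KPH2 4 (adjusted p = 0.029). With the covariate, the median of the muscle-restricted members moved to -0.73 (-0.41 over 8 tumours) and that of the broadly expressed members to -0.040 (-0.11). Dmd then turned to -0.97 (-0.90 over 8), Sgca to -0.49 (0.093 over 8, not turned), Sgce to -0.20 (0.36, not turned) and, over 8 tumours only, Sgcb to -0.35 (0.12 over 7). The cause was not tested. Over 8 tumours edgeR called 0 ligand genes and 0 partners, also with the covariate, which over 7 tumours called 0 partners. DESeq2 called 4 ligand genes and 8 partners over 7 tumours, and 3 ligand genes and 1 partner over 8. Without the filter 2 ligand genes were called. Leaving out each tumour gave 0 to 3 partners, with 0 without KP 7 or KPH2 2 and 1 without KP 8. The Sgce to Sgca log2 ratio turned to 0.071 over 8 tumours and ran from -1.26 (without KP 7) to 0.17 (without KP 6) when each tumour was left out. The correlation of Utrn with the muscle score over the 6 lower tumours was close to 0 (Pearson 0.13, Spearman -0.14). No paired analysis was possible because the groups share no replicate numbers. Sgca rests on counts of 7 to 22 in KP tumours, which limits its precision, and 3 tumours in a group limit every test.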

Other observations

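Of 4 muscle regulators named after their values were seen, Myog and Myod1 were higher in KPH2 2 to KPH2 4 than in every KP tumour, as were 8.73% of all genes tested, and Mef2c and Pax7 overlapped between the groups. Myog, a transcription factor of differentiating muscle cells, was at 0.15 to 14.4 CPM in KP tumours, at 60.5, 126 and 18.7 CPM in KPH2 2, 3 and 4 and at 0.72 CPM in KPH2 1. Its log2 difference of 3.82 ± 1.01 (SE, edgeR adjusted p = 0.105) did not pass the test. Myod1, which sets the muscle fate, was at 18.6, 36.8 and 9.13 CPM in KPH2 2, 3 and 4 against 4.67 CPM or less in KP tumours (adjusted p = 0.077). KPH2 4, which had Sgca at 1.01 CPM, was thus above every KP tumour in both regulators.

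Other imprinted genes, also named after their values were seen, lay differently in KP 7. Mest was at 55.3 CPM there and at 45.4 to 62.2 CPM in the other KP tumours. Dlk1 was lowest in KP 7, at 4.30 CPM against 10.1 to 229 CPM in the other KP tumours, and Peg3, at 7.71 CPM, lay between the others at 2.79 to 41.4 CPM. Ppp1r9a, on the far side of Peg10, was at 16.2 CPM in KP 7 and at 8.10 to 22.5 CPM in the other KP tumours, and had a log2 difference of 1.62 ± 0.31 in KPH2 tumours (SE, adjusted p = 0.042). That edgeR call held in 1 of 7 fits without a tumour and was lost over all 8 tumours and with the muscle covariate. The difference was 1.54 ± 0.29 over all 8 tumours (SE, adjusted p = 0.11 in edgeR and 0.0004 in DESeq2). With the covariate over 7 tumours it was 2.13 ± 0.55 (SE, edgeR adjusted p = 0.33).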
